A study of Mus musculus with 7 samples.

Results

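Non-homologous end joining was followed through 10 genes in mouse splenic B cells that were switching their antibody class. The genes were taken by name from the deposited table, in which each has 1 row out of 46959 features, and all 10 passed the filter on low reads. They encode the Ku subunits (Xrcc5 and Xrcc6), the DNA-PK catalytic subunit (Prkdc), the ligase complex (Lig4, Xrcc4 and Nhej1), the nuclease Artemis (Dclre1c) and 3 proteins that signal or protect breaks (Atm, Trp53bp1 and Rif1). Total RNA came from purified splenic B cells held for 4 days with lipopolysaccharide (1 µg/mL) and IL-4 (20 ng/mL), a mixture that drives proliferation and switching to IgG1 and IgE. The comparison has 3 wildtype libraries and 4 labelled cKO MED1, after the gene of a Mediator subunit. The Cre driver, the strain, the age of the mice and whether each culture came from its own mouse are not stated in the labels. The p-values therefore reflect only how far these libraries spread, and that spread may be technical.

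In class switch recombination the deaminase AID starts lesions in the repetitive switch regions of the heavy chain locus, and these become double-strand breaks. Ku forms a ring that threads onto a broken end and recruits DNA-PKcs, and the XRCC4 and LIG4 pair, helped by XLF (the product of Nhej1), seals the joint. ATM phosphorylates chromatin and repair factors around the break, and 53BP1 with its partner RIF1 shields the ends from resection so that distant switch regions can be joined. When this pathway is impaired, some switch joints are still made by alternative end joining, which uses short homologies. The series title concerns Med1 and the expression, hypermutation and suicide recombination of the heavy chain genes, and the level of the joining machinery is a measurement beside that question.

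Libraries held 31937372 to 61149274 recovered reads, and each wild-type library was deeper than each cKO MED1 library. Values are normalised reads, that is, recovered reads scaled by TMM factors to a common library of 48019763 reads. Med1 stood at 4173 to 4755 normalised reads in wild type and at 2172 to 2585 in cKO MED1, with 53.9% of the wild-type mean remaining. This is a read count for the gene as a whole, and neither the extent of deletion nor the protein was measured here. B cell markers summed to 134992 to 146886 normalised reads in wild type and 92143 to 107067 in cKO MED1, without overlap. Of these 5 markers, 4 were called lower (limma). Among lists of other cell types, those of T cells (32.6 to 46.3 and 28.5 to 139), NK cells (59.6 to 109 and 25.7 to 96.1) and macrophages and monocytes (432 to 692 and 536 to 769) overlapped between wild type and cKO MED1. The stromal and endothelial list was lower in cKO MED1 (982 to 1138) than in wild type (1383 to 1614) without overlap, with 1 of its 4 genes called lower (limma). The neutrophil list, with no gene tested, was higher there without overlap (6.78 to 27.5 against 0.689 to 3.99). No marker of these lists was at 0 in all libraries, and their part in the members' levels was not tested. Y-linked Ddx3y reads were found in all wild-type libraries and in cKO MED1 replicate 3, so genotype and sex are largely confounded.

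Of the 10 end joining genes, 3 fell in cKO MED1 and 0 rose (limma, adjusted p threshold of 0.05 over all 18062 tested genes). Xrcc5 went to 75.2%, Atm to 78.2% and Rif1 to 80.9% of the wild-type mean. Among all tested genes 14.6% were called lower and 13.4% higher. The lower calls were more common among abundant genes, and 27.8% were called lower in the tertile with the highest mean reads, which holds 7 of the 10 members, the 3 called among them. The remaining 7 genes did not pass. The log2 fold change was negative in 9 of the 10, against 46.8% of all tested genes. The median was -0.24, against 0.04 for all tested genes. Neither comparison was made within the tertile with the highest mean reads. Fold changes are given as cKO MED1 minus wild type on the log2(normalised reads + 1) scale. In this bulk RNA fewer cells of a type and less RNA per cell cannot be told apart.

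**Figure D1:**
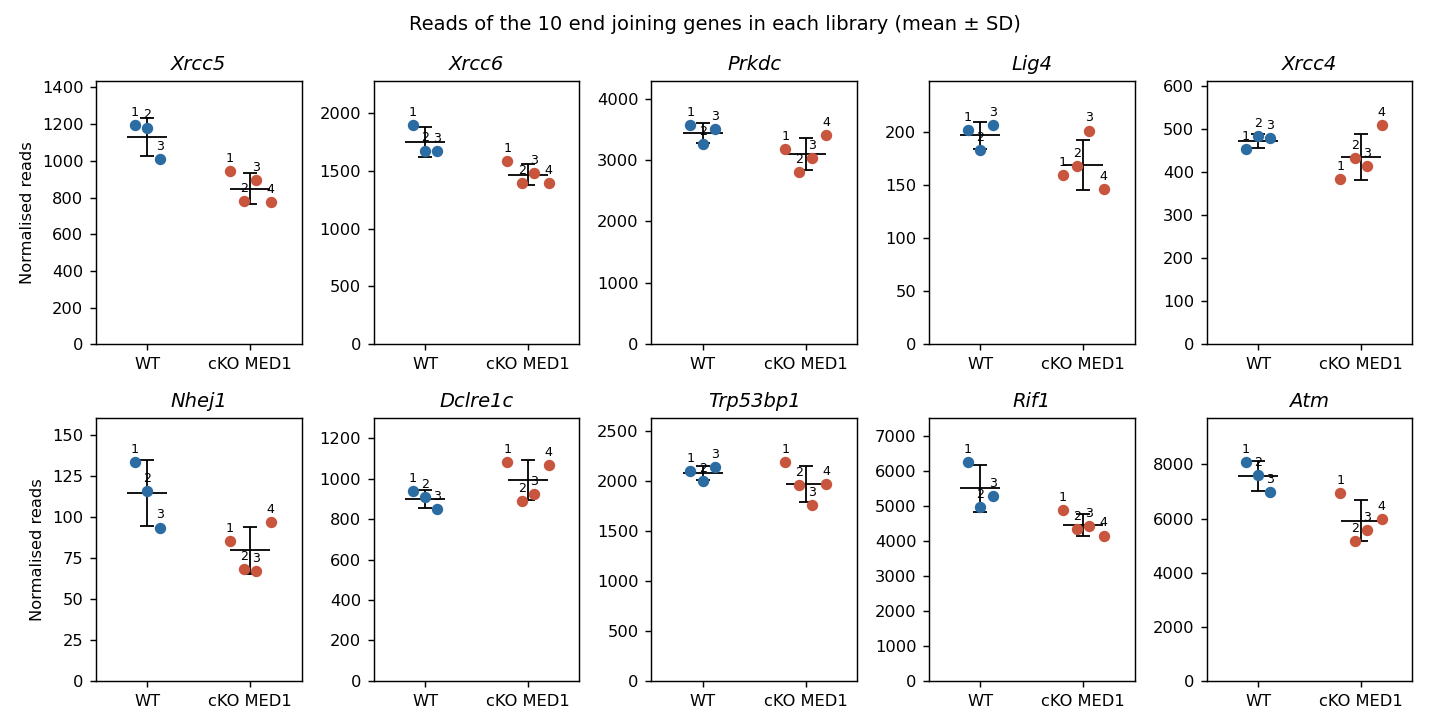
Normalised reads (vertical axes, from 0) of the 10 end joining genes in each library of wild type (WT, blue, n = 3) and cKO MED1 (red, n = 4). Digits give the replicate number, and bars the mean ± SD. The groups do not overlap for Xrcc5, Xrcc6, Rif1 and Atm.

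The 3 calls were not firm. Without wild-type replicate 1, which was the deepest library, 0 of 10 members passed (limma), although the log2 fold changes were still -0.42 for Xrcc5 (adjusted p = 0.066), -0.36 for Atm (adjusted p = 0.112) and -0.26 for Rif1 (adjusted p = 0.178), and 5.25% of tested genes were called lower. Without cKO MED1 replicate 4, 0 of 10 passed and 8.9% of tested genes were called lower, with -0.35 for Xrcc5 (limma adjusted p = 0.0502). Without cKO MED1 replicate 2, and likewise without replicate 3, Xrcc5 was the 1 member called, beside 12.8% and 12% of tested genes. When the sex of each library entered the model, 0 of 10 passed (limma), with 0.659% of tested genes called lower, and the log2 fold changes were -0.33 for Xrcc5, -0.44 for Atm and -0.31 for Rif1. In that fit the genotype effect rests on cKO MED1 replicate 3, the 1 male library of its group.

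Dividing-cell genes were lower in cKO MED1 as well. The 16 genes of the dividing-cell list summed to 133983 to 168096 normalised reads in wild type, highest in replicate 1, and to 86523 to 111830 in cKO MED1, and 15 of the 16 fell (limma). The list of 16 silent neuronal and muscle genes, which are not B cell genes, summed to 1006 to 1358 normalised reads in wild type and to 1359 to 2630 in cKO MED1, with 5 of its 14 tested genes called higher. A background per kb of exon, measured on olfactory and vomeronasal receptor genes, was then subtracted. The log2 fold changes of Xrcc5, Atm and Rif1 were -0.41, -0.36 and -0.30, and the same 3 members were called. That background was at most 1.04 normalised reads per kb, against means of 332 to 732 for these genes. The subtraction could therefore hardly move their calls. The part of proliferation in the members' levels was not tested.

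Both Ku genes had fewer normalised reads in each cKO MED1 library than in any wild-type library. Xrcc5, which encodes Ku80, held 1196, 1182 and 1010.0 normalised reads in the wild-type libraries, in order of replicate number, and 943, 779.8, 894 and 777.8 in the cKO MED1 libraries. The groups did not overlap, and replicate 3 was the lowest wild-type library. Xrcc5 fell from a wild-type mean of 1129 ± 103 (SD, n = 3) to 849 ± 83.2 (SD, n = 4). Its log2 fold change was -0.41 (SE 0.11; adjusted p = 0.0178, limma). Of all alternatives run, 18 of 22 kept this call.

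Xrcc6, which encodes Ku70, held 1897, 1675 and 1673 normalised reads in wild type and 1587, 1396, 1480.3 and 1395 in cKO MED1. These groups did not overlap either, and replicate 1 was the highest library of both. On average there were 1748 ± 129 (SD, n = 3) and 1464 ± 90.9 (SD, n = 4) reads, with a log2 fold change of -0.25 (SE 0.09, 95% interval -0.45 to -0.06) that just missed the threshold (limma adjusted p = 0.0516). Xrcc6 passed in 7 of 22 alternatives, edgeR's quasi-likelihood test (adjusted p = 0.0499) and DESeq2 (adjusted p = 0.0302) among them. Its exons share 344 bases with those of Desi1 on the opposite strand, and Desi1 did not pass (log2 fold change -0.21, limma adjusted p = 0.19). In all, 4 of the 10 members were lower in cKO MED1 with no overlap between the groups, as were 19.8% of all tested genes. All 4 belong to the tertile with the highest mean reads, within which this share was not computed.

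The Ku genes lie on different chromosomes, Xrcc5 (ENSMUSG00000026187.8) on chromosome 1 from 72307421 to 72394952 and Xrcc6 (ENSMUSG00000022471.14) on chromosome 15 from 81987835 to 82040085 (GENCODE, GRCm38). Their promoters are shown because these partner genes, whose products are made as an obligate pair, were both lower in all 4 cKO MED1 libraries. The windows run from 250 bases before to 50 after the RefSeq start (GRCm38.p6), at chr1:72307171-72307470 and chr15:82016119-82016418, both on the plus strand. Capitals mark matches, on either strand, to CCAAT (the NF-Y motif), GGGCGG (SP1), CCGGAAG (ETS factors), TTTGGCGC or TTTCCCGC (E2F), TGACGTCA (CREB) and to the NRF1 motif, and no matches overlap in the windows printed.
Xrcc5: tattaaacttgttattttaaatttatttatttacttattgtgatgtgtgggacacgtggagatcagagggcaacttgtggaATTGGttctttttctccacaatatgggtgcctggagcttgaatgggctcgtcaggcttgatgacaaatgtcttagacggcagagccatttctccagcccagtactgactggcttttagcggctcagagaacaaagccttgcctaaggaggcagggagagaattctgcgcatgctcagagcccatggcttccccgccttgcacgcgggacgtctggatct
Xrcc6: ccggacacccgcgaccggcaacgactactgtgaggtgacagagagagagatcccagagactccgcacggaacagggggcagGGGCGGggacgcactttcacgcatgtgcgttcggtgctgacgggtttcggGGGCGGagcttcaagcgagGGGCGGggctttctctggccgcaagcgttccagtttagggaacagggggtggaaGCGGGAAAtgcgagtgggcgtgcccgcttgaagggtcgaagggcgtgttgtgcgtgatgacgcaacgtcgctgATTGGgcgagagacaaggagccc
The Xrcc5 window held 1 NF-Y match and none of the other motifs. The Xrcc6 window held 3 SP1 matches, 1 E2F match (TTTCCCGC) and 1 NF-Y match. Its GC content was 64.3%, against 48% for Xrcc5 and a median of 52.7% over 32851 promoters. Matches to the NF-Y, SP1 and this E2F string were found in 37.4%, 35.7% and 1.07% of those promoters. RefSeq promoters were matched for 8 of the 10 members.

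Prkdc encodes DNA-PKcs, the kinase that Ku recruits to the end. It held 3572, 3260 and 3503 normalised reads in wild type and 3180.3, 2797, 3025 and 3415 in cKO MED1. Replicate 4 of cKO MED1 lay inside the wild-type range, so the groups overlapped. Wild type averaged 3445 ± 164 (SD, n = 3) and cKO MED1 3104 ± 260 (SD, n = 4), and the log2 fold change of -0.15 (SE 0.09, 95% interval -0.35 to 0.05) did not pass (limma adjusted p = 0.213).

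Dclre1c encodes Artemis, the nuclease that opens hairpins and trims ends once DNA-PKcs has bound it. It held 939, 909 and 848 normalised reads in wild type and 1084, 889, 925 and 1067 in cKO MED1. Replicates 1 and 4 of cKO MED1 were above the wild-type range and replicates 2 and 3 within it. Wild type averaged 899 ± 46.5 (SD, n = 3) and cKO MED1 991 ± 98.7 (SD, n = 4), and the log2 fold change of 0.14 (SE 0.10, 95% interval -0.08 to 0.35) did not pass (limma adjusted p = 0.306). This was the 1 positive value among the 10, and it was -0.11 when libraries were scaled by total reads and -0.02 without a filter on low reads. The exons of Dclre1c share 357 bases with those of Suv39h2, a histone methyltransferase gene on the opposite strand. Suv39h2 fell, with a log2 fold change of -0.57 (limma adjusted p = 0.00936), and the labels do not say whether the counting used strand.

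The ligase complex genes had the fewest reads of the members, and 0 of the 3 passed (0 by edgeR and DESeq2 as well, and 1, Nhej1, at an unadjusted p under 0.05). Of all tested genes limma called 14.6% lower, edgeR 14.8% and DESeq2 16.8%. At an unadjusted p under 0.05 (limma), 3798 of 18062 were lower. Counts among 3 genes cannot be told from these shares. Lig4, the ligase itself, held 202, 183 and 207 normalised reads in wild type and 159.9, 168, 202 and 146 in cKO MED1. Replicate 3 of cKO MED1 reached the wild-type level, and the log2 fold change was -0.23 (SE 0.14, 95% interval -0.54 to 0.08, limma adjusted p = 0.224). In the model with library sex the log2 fold change was 0.03.

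Xrcc4, the partner that stabilises the ligase, held 453, 484 and 478 normalised reads in wild type and 382, 431, 414 and 509 in cKO MED1. The wild-type libraries lay close together (coefficient of variation 3.48%), while cKO MED1 spread on both sides of them (12.4%). The log2 fold change of -0.13 (SE 0.11, 95% interval -0.38 to 0.12) did not pass (limma adjusted p = 0.402).

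Nhej1, which encodes XLF, a structural relative of XRCC4 that bridges the ends, held 134, 116 and 93.4 normalised reads in wild type and 85.4, 68.2, 67.2 and 97.0 in cKO MED1. Replicate 4 of cKO MED1 exceeded wild-type replicate 3. The means of 114 ± 20.1 (SD, n = 3) and 79.4 ± 14.4 (SD, n = 4) gave the most negative log2 fold change of the 10, -0.52, with the largest SE, 0.19, and it did not pass (limma adjusted p = 0.0631). Nhej1 rests on 51 to 194 recovered reads per library, the fewest of the members. It passed in 5 of 22 alternatives, among them the authors' scaling (-0.65, limma adjusted p = 0.0216) and the fit without wild-type replicate 3 (-0.71, limma adjusted p = 0.0375).

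Of the break-signalling members, Atm, the kinase gene, held 8107, 7629 and 6975 normalised reads in wild type and 6942, 5176, 5578 and 5983 in cKO MED1. The groups did not overlap, but cKO MED1 replicate 1 (6942) came close to the lowest wild-type library (6975). Atm fell from a wild-type mean of 7570.3 ± 568 (SD, n = 3) to 5919 ± 757 (SD, n = 4). Its log2 fold change was -0.36 (SE 0.11; adjusted p = 0.0336, limma). The call held in 14 of 22 alternatives. The 8 that lost it include the fits named above and the fit without wild-type replicate 2 (-0.41, limma adjusted p = 0.0578).

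Rif1, whose product is bound by phosphorylated 53BP1 and also times replication origins, held 6261, 4963 and 5274 normalised reads in wild type and 4881, 4339.5, 4419 and 4151 in cKO MED1. Wild-type replicate 1 stood well above its group, and cKO MED1 replicate 1 lay just under the lowest wild-type library. Rif1 fell from a wild-type mean of 5499.5 ± 678 (SD, n = 3) to 4447 ± 310.0 (SD, n = 4). Its log2 fold change was -0.30 (SE 0.10; adjusted p = 0.0454, limma). This was the least secure of the calls, kept in 13 of 22 alternatives and lost without wild-type replicate 3 (-0.38, limma adjusted p = 0.0548).

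Trp53bp1, which encodes 53BP1, held 2101, 1998 and 2139.8 normalised reads in wild type and 2194, 1957, 1759.5 and 1966 in cKO MED1. The highest of all 7 libraries was cKO MED1 replicate 1. Wild type averaged 2079.6 ± 73.0 (SD, n = 3) and cKO MED1 1969 ± 178 (SD, n = 4), and the log2 fold change of -0.08 (SE 0.09, 95% interval -0.28 to 0.12) did not pass (limma adjusted p = 0.507). Its exons share 2130.0 bases with those of Tubgcp4 on the opposite strand, and Tubgcp4 did not pass (-0.05, limma adjusted p = 0.705).

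**Figure D2:**
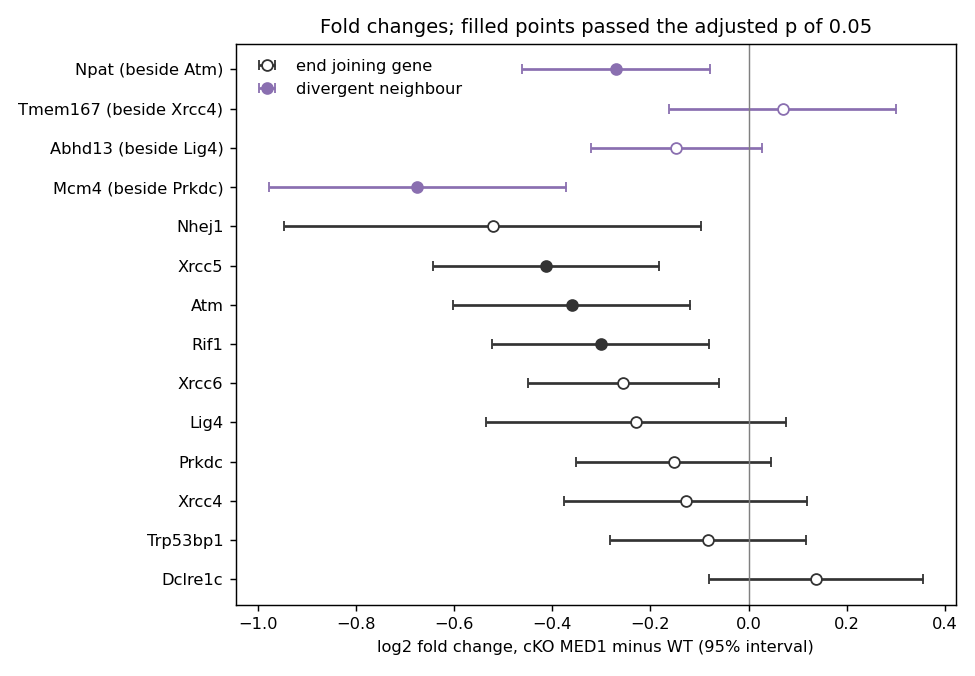
Log2 fold change (horizontal axis, cKO MED1 minus WT) with its unadjusted 95% interval for the 10 end joining genes (black) and the 4 genes that start beside one of them on the opposite strand (violet). Filled points, Xrcc5, Atm, Rif1, Mcm4 and Npat, passed limma's adjusted p of 0.05.

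For 4 members a gene on the opposite strand starts within 1000 bases of the GENCODE gene start and is read in the other direction. Such a pair can share a promoter region. The Xrcc6 window printed above lies inside the GENCODE span of that gene, and its RefSeq start was not searched for neighbours. Prkdc and Mcm4, a subunit gene of the replicative helicase, start 466 bases apart. Mcm4 held 7771, 6024 and 6242 normalised reads in wild type and 4694, 4505, 4376 and 3223 in cKO MED1 without overlap. It fell by 0.68 on the log2 scale (SE 0.14; adjusted p = 0.00748, limma), beside -0.15 for Prkdc. The difference within the pair was not tested.

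Atm and Npat, a coactivator gene of histone transcription, start 307 bases apart. Npat held 2886, 2617 and 2635 normalised reads in wild type and 2461, 2283, 2138 and 2123 in cKO MED1, again without overlap. It fell by 0.27 (SE 0.09; adjusted p = 0.04, limma), beside 0.36 for Atm, and the call was lost in 10 of 22 alternatives, without wild-type replicate 1 (-0.28, limma adjusted p = 0.141), without replicate 2 (-0.35, adjusted p = 0.0563) and without replicate 3 (-0.34, adjusted p = 0.0544) among them. Without cKO MED1 replicate 2, 3 or 4 the limma adjusted p of Npat was 0.0706, 0.0899 and 0.101.

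Lig4 and Abhd13 start 21 bases apart. Abhd13 held 1458, 1317 and 1386 normalised reads in wild type and 1241.2, 1240.8, 1271 and 1254 in cKO MED1, which did not overlap, and the log2 fold change of -0.15 did not pass (SE 0.08; adjusted p = 0.176, limma). The starts of Xrcc4 and Tmem167 lie 485 bases apart and the exons of this pair share 112 bases. Tmem167 stood at 3097 ± 57.2 (SD, n = 3) and 3269.8 ± 419 (SD, n = 4) normalised reads (log2 fold change 0.07, limma adjusted p = 0.636). Of the 4 neighbours, 2 fell and 0 rose (limma). All 4 belong to the tertile with the highest mean reads, where 27.8% of genes were called lower, against 14.6% of all tested genes.

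The windows of Atm and Lig4 are printed because each is one side of such a pair, the first with both genes called and the second with neither. Atm (ENSMUSG00000034218.16, chromosome 9 from 53439149 to 53536740, minus strand) has its window at chr9:53536622-53536921, and Lig4 (ENSMUSG00000049717.9, chromosome 8 from 9969049 to 9977686, minus strand) at chr8:9977631-9977930. Lig4 has another RefSeq window at chr8:9976262-9976561, and the one printed is that of the start beside Abhd13. Both are written along the minus strand with the capitals as above.
Atm: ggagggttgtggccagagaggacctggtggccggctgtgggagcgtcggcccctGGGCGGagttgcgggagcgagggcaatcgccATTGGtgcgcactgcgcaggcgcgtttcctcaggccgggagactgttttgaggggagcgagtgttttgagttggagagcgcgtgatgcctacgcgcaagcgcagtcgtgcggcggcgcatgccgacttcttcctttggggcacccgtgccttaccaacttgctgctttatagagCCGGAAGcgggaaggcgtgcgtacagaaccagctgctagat
Lig4: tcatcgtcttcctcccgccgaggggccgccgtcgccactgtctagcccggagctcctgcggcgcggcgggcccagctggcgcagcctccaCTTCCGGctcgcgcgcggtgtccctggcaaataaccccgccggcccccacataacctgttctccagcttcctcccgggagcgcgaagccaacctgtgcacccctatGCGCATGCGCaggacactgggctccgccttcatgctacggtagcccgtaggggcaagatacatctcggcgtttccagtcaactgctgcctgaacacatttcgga
The Atm window held 1 match each to the SP1, NF-Y and ETS motifs, and the Lig4 window printed 1 ETS and 1 NRF1 match, found in 8.86% and 0.971% of all promoters. The other Lig4 window held 2 SP1 matches and 1 ETS match and no NRF1 match. Over the 9 windows of the 8 members with a promoter, 4 members held the NF-Y motif, 7 SP1, 4 ETS, 1 the E2F string TTTCCCGC, 1 NRF1, 0 the other E2F string and 0 CREB, the last pair being present in 0.514% and 1.79% of all promoters. A match is a string of letters and not a measured site.

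Ratios between members within a library do not depend on how libraries are scaled to each other. Of 7 ratios, Dclre1c/Prkdc was the 1 whose groups did not overlap. Its log2 value was -1.93, -1.84 and -2.05 in wild type and -1.55, -1.65, -1.71 and -1.68 in cKO MED1, a difference of 0.29 or 1.22-fold. Its p of 0.0286 in a two-sided exact permutation test is the smallest that 35 assignments of the libraries allow, and it was 0.16 when adjusted over the 7 ratios. Xrcc6/Xrcc5, the ratio of the Ku transcripts, had a log2 value of 0.63 ± 0.12 (SD) in wild type and 0.79 ± 0.06 (SD) in cKO MED1 (exact permutation p = 0.0571, adjusted 0.16). Wild-type replicate 3 (0.728) and cKO MED1 replicate 3 (0.727) were level with each other.

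The other ratios overlapped between the groups. Nhej1/Xrcc4 differed by -0.40, Rif1/Trp53bp1 by -0.22 and Atm/Prkdc by -0.21 on the log2 scale (exact permutation p = 0.114 for each, adjusted 0.16). Prkdc/Xrcc5 differed by 0.26 (exact permutation p = 0.171, adjusted 0.2) and Lig4/Xrcc4 by -0.10 (exact permutation p = 0.686, adjusted 0.686). No ratio passed after adjustment, but with 3 and 4 libraries a single ratio at the smallest possible p adjusts to 0.2 over the 7, so this outcome was nearly set by the design and does not show that the proportions of these transcripts stayed the same.

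**Figure D3:**
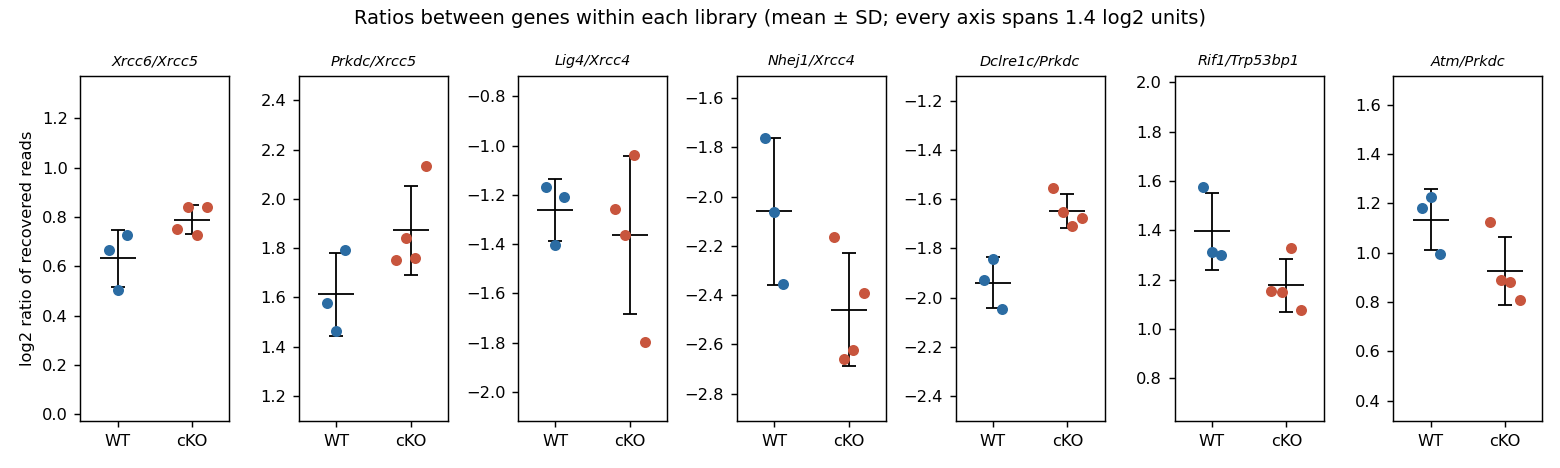
Log2 ratio of recovered reads between pairs of end joining genes within each library (vertical axes, each spanning the same width) in WT (blue, n = 3) and cKO MED1 (cKO, red, n = 4), with mean ± SD. The groups are apart for Dclre1c/Prkdc and overlap for the other pairs.

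Per length of exon the members spanned a wide range. In wild type Atm was highest at 732 ± 55.0 normalised reads per kb (SD, n = 3), followed by Rif1 at 524 ± 64.5, Xrcc5 at 442 ± 40.5, Xrcc6 at 391 ± 28.7 and Prkdc at 261 ± 12.4. Trp53bp1 stood at 147 ± 5.15, Xrcc4 at 112 ± 3.90, Nhej1 at 102 ± 18.0 and Dclre1c at 96.5 ± 4.99 reads per kb, and Lig4 was lowest at 37.9 ± 2.43. The wild-type libraries of Xrcc5 and Xrcc6 overlapped, as did those of Xrcc4 and Nhej1 and of Nhej1 and Dclre1c, and other neighbours in this order were apart.

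In cKO MED1 the order was the same from Atm (573 ± 73.2 reads per kb; SD, n = 4) down to Trp53bp1 (139 ± 12.5). Xrcc5 (332 ± 32.6) and Xrcc6 (327 ± 20.3) were level there. Dclre1c (106 ± 10.6) moved above Xrcc4 (103 ± 12.8) and Nhej1 (71.1 ± 12.9), with overlapping libraries for Dclre1c and Xrcc4, and Lig4 (32.5 ± 4.51) stayed last.

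**Figure D4:**
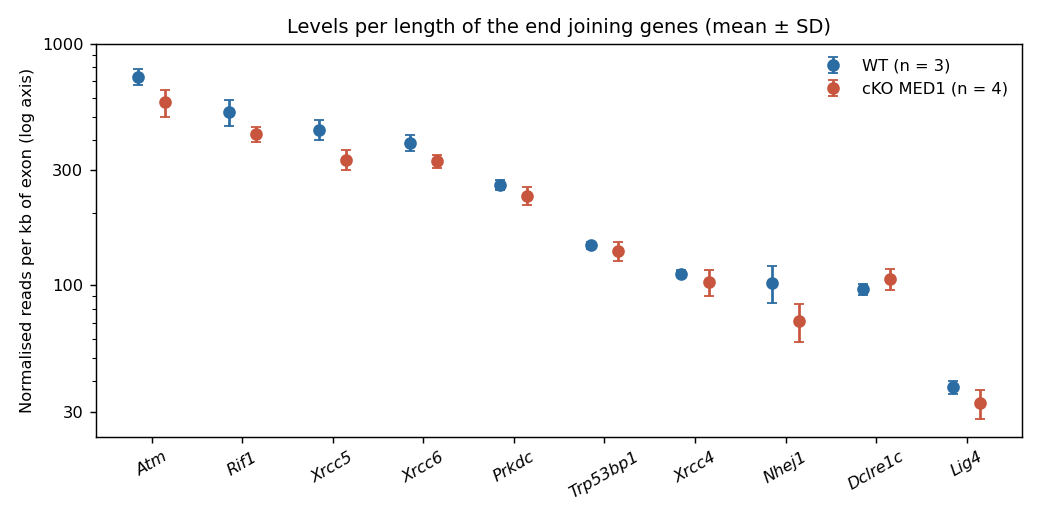
Normalised reads per kb of exon (vertical log axis) of the 10 end joining genes in WT (blue, n = 3) and cKO MED1 (red, n = 4), mean ± SD, ordered by the WT level. Atm is highest and Lig4 lowest in both groups.

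Of 33 further genes of end joining and the break response, 31 were matched to the table and 29 were tested. In cKO MED1 11 of the 29 fell, 0 rose and 18 did not pass (limma), with a median log2 fold change of -0.24 against 0.04 for all tested genes, of which 14.6% were called lower. The tertile with the highest mean reads, where 27.8% were called lower, holds 18 of the 29 and 9 of the 11 calls. The median was not compared within that tertile. Without wild-type replicate 1 the count was 3 (Nbn, Parp3 and Trip13), without cKO MED1 replicate 4 it was 4 (these and Topbp1), and with sex in the model it was 1, Parp3 (limma). Calls were also lost without wild-type replicate 2 (H2afx and Parp1) and without cKO MED1 replicate 1 (H2afx), replicate 2 (Polq and Rbbp8) or replicate 3 (Mre11a, Paxip1 and Parp1). The untested genes were Dntt, the terminal transferase gene, with at most 9 recovered reads in a library, and Pagr1a, with at most 2.

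Genes of break sensing and signalling fell in 4 of 9 cases, beside 14.6% of all tested genes and 27.8% of the highest-read tertile. Nbn and Mre11a, subunits of the complex that detects broken ends and activates ATM, fell by 0.50 (SE 0.11; adjusted p = 0.0102, limma) and 0.33 (SE 0.09; adjusted p = 0.0248, limma). Topbp1, an activator of the kinase ATR, fell by 0.40 (SE 0.10; adjusted p = 0.0167, limma). H2afx, the histone variant that ATM phosphorylates, fell by 0.69 (SE 0.23; adjusted p = 0.0466, limma), but cKO MED1 replicate 2, at 5634 normalised reads, was above wild-type replicate 3 at 5443, and 11 of 22 alternatives did not call it.

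Accessory end joining genes fell in 2 of 9 tested cases, beside 14.6% of all tested genes and 27.8% of the highest-read tertile. Parp3, an ADP-ribosyltransferase that acts with Ku, held 1007, 1153 and 1040.3 normalised reads in wild type and 692, 659, 491 and 615 in cKO MED1. It fell by 0.80 (SE 0.12, limma adjusted p = 0.00187), was well apart between the groups and was called in all 22 alternatives. With the sex covariate its log2 fold change was -1.11, but that fit rests on cKO MED1 replicate 3, its lowest library. Tdp2, which frees ends blocked by topoisomerase, fell by 0.35 (SE 0.10; adjusted p = 0.0227, limma). Polm, a gap-filling polymerase gene, had a positive value of 0.28 that did not pass (limma adjusted p = 0.0757).

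Among the effectors of 53BP1, 2 of 6 tested genes fell, beside 14.6% of all tested genes and 27.8% of the highest-read tertile. Trip13, an ATPase gene whose product remodels the shieldin subunit REV7, held 1309.5, 1116 and 905 normalised reads in wild type and 577, 652, 666 and 476 in cKO MED1. It fell by 0.90 (SE 0.15; adjusted p = 0.00261, limma), the largest fall in the list, and the call was lost in 1 of 22 alternatives, the sex covariate. Paxip1, which encodes the 53BP1 partner PTIP, fell by 0.31 (SE 0.09; adjusted p = 0.0269, limma). Dynll1 (-0.26, limma adjusted p = 0.103) and the shieldin gene Fam35a (0.19, limma adjusted p = 0.173) did not pass.

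Alternative end joining genes fell in 3 of 5 cases, beside 14.6% of all tested genes and 27.8% of the highest-read tertile. Parp1, the ADP-ribosyltransferase that senses breaks, fell by 0.40 (SE 0.12; adjusted p = 0.0308, limma), Polq, the polymerase of this route, by 0.36 (SE 0.10; adjusted p = 0.0248, limma), and Rbbp8, which encodes the resection factor CtIP, by 0.34 (SE 0.09; adjusted p = 0.0248, limma). Lig3 did not pass (-0.17, limma adjusted p = 0.146). A difference between this route and the classical one was not tested.

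**Figure D5:**
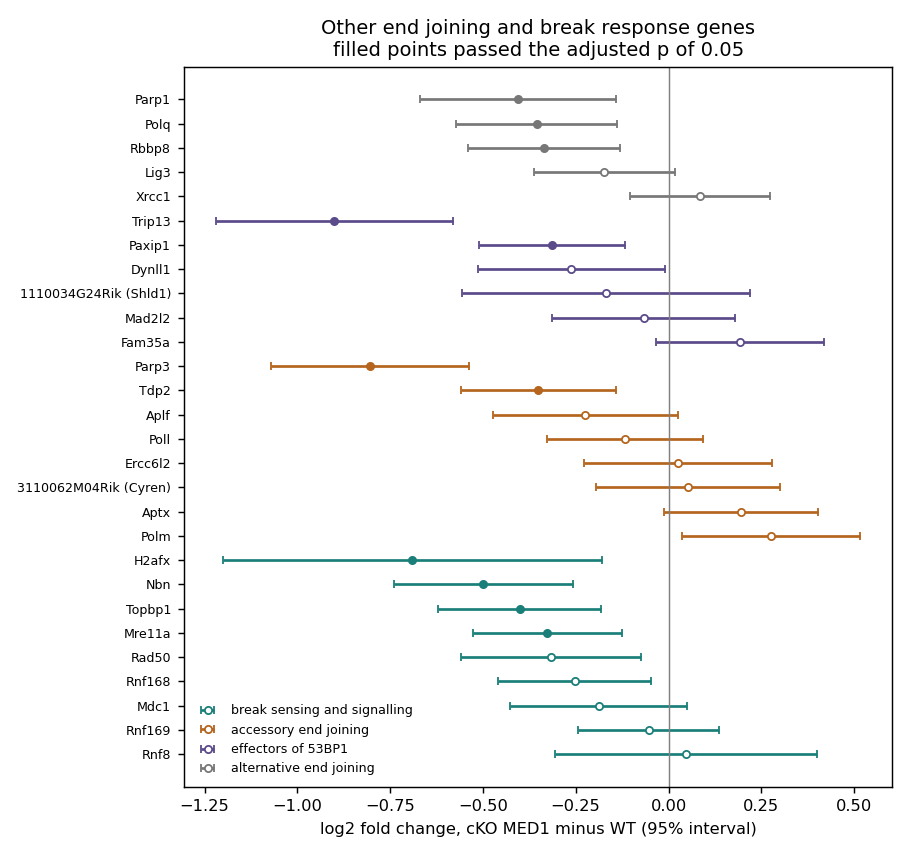
Log2 fold change (horizontal axis, cKO MED1 minus WT) with its unadjusted 95% interval for the tested genes of the wider list that are shown individually, coloured by sub-list. The 11 filled points, all left of 0, passed limma's adjusted p of 0.05, and Trip13 and Parp3 lie farthest left.

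Over the 7 libraries the mean of the members, each centred on its own mean log2 value, was 0.22, 0.11 and 0.07 in wild type and -0.01, -0.19, -0.13 and -0.07 in cKO MED1, by replicate number. Wild-type replicate 1, the deepest library, was the highest for the members and for the dividing-cell list. The lowest was cKO MED1 replicate 2 for the members and cKO MED1 replicate 4 for that list. A relation between the members and the list was not tested. Xrcc6 was the member closest to this mean profile, at a root-mean-square difference of 0.05 (log2), and Nhej1 the farthest at 0.22. Among 8815 other genes the closest were Ythdc2 (0.03), Gon4l (0.03), Hdac10 (0.03), Ttc37 (0.04) and Mettl3 (0.04), against a median difference of 0.17. Dclre1c (0.19) and Nhej1 were farther from the profile than that median, Lig4 (0.17) was level with it and Xrcc4 (0.15) was near it. The mean profile is therefore not shared by all members. Each member also enters the mean it is measured against, which the other genes do not.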

How the data were processed

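The authors deposited a signal per gene for 7 libraries, read counts divided by 1 size factor per library: 100% of values were whole multiples of their library's smallest step within 1e-06, so whole reads were recovered. Libraries came from a stranded total RNA kit after ribosomal RNA depletion, per the labels' protocols. Per the submitters' processing notes, GRCm38 (mm10) was used, with DESeq2, R 3.4, featureCounts of Subread 1.5.0-p3 and STAR 2.4.0a among the tools. The phiX174 row (at most 0.000383% of reads) was left out.

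Genes kept by filterByExpr (18062) were scaled with TMM (edgeR 4.0.16) and tested with limma 3.58.1 (R 4.3.3, intensity trend) on log2(normalised reads + 1) with Benjamini-Hochberg adjustment at 0.05 over all tested genes. Recovered reads were also tested with edgeR's quasi-likelihood test, which called 2665 genes lower and 2675 higher, and DESeq2 1.42.0. On simulated reads limma recovered 14.9%, 61.2% and 78.8% of genes changed by 0.5, 1 and 2 (log2), with 7 false calls. There 67, 67 and 66 genes of 18062 were changed, far fewer than the 2646 lower and 2419 higher calls in the data. These shares are therefore not the power of the real comparison. Intervals cover the fitted spread between libraries. Exon lengths come from GENCODE vM21 by symbol (44039 features placed), promoters from RefSeq.

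The members and lists were chosen with earlier results of these data known. Named genes are all members, up to 4 genes per sub-list with the smallest adjusted p, the divergent neighbours, and the 5 genes nearest the members' mean profile (mean CPM 5 or more). The subtraction of a background pooled over receptor genes was added after seeing the data, because the planned median was 0 in 5 libraries. Of the genes named by the rule above, 1 is counted in its list but not reported here.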

Additional observations from a re-analysis of the deposited data

How the results depend on the processing

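Across 22 alternatives no member, pathway gene or neighbour named here was called in the opposite direction, and 0 members were called higher. Against 3 lower calls, the members gave 5 with the authors' deposited scaling, 5 without a filter, 6 with total reads, 1 with the filter of CPM 1 in 3 libraries, 0 with sex as a covariate and 0 without cKO MED1 replicates 3 and 4, and 0 to 4 with each library left out. In these settings 19.8%, 8.81%, 24.2%, 12.9%, 0.659% and 7.36% of tested genes were called lower. TMM factors were recomputed on the genes kept, so both filters also change the scaling. The authors' scaling and total reads moved the median of all genes from 0.04 to -0.10 and -0.21. The pathway list gave 11 lower calls, against 6 with the filter of CPM 1 in 3 libraries (where 3 were higher), 7 with the replicate block, 1 with sex as a covariate, 3 without cKO MED1 replicates 3 and 4 (where 1, Polm, was higher) and 3 to 14 with each library left out (0 to 1 higher). The divergent neighbours gave 2, against 1 with the filter of CPM 1, 1 with the replicate block, 1 without cKO MED1 replicates 3 and 4, 0 with sex as a covariate and 1 to 2 with each library left out. Of all tested genes 10.1% were called lower with the replicate block, and 5.25% to 17.5% with each library left out. Higher calls were 2013 of 12562 tested genes with the filter of CPM 1 and 876 of 17396 without cKO MED1 replicates 3 and 4. Without cKO MED1 replicate 3, where Polm was called higher, they were 1668 of 17159. Same-numbered libraries deviated from their group means with correlations of 0.51, -0.23 and 0.16. These were not set beside other library pairs, so they do not decide whether replicate numbers pair the samples. The block kept 3 member calls, with Nhej1 in place of Rif1. Differences of the 7 ratios kept their sign with each library left out, except Lig4/Xrcc4 (-0.21 to 0.04). By the longest transcript the wild-type level per kb was 530.4 for Xrcc6, 138 for Xrcc4, 127 for Dclre1c, 216 for Trp53bp1 and 646 for Rif1, so Xrcc6 passed Xrcc5 and Dclre1c passed Nhej1. The causes of these shifts were not tested. At this depth the members with fewest reads, Nhej1 and Lig4, had the largest SE.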
